A study of Mus musculus with 4 samples.

Results

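The mitochondrial genome of the mouse carries 13 protein-coding genes, and 6 of them are described here: mt-Co1, mt-Co2 and mt-Co3, which encode the core subunits of cytochrome c oxidase (complex IV), mt-Cytb, which encodes cytochrome b of complex III, and mt-Atp6 and mt-Atp8, which encode subunits of the ATP synthase membrane sector. They were chosen by function as all mitochondrially encoded respiratory subunits outside complex I, with earlier results of these data known. The table held 11502 gene symbols, of which 10437 averaged 1 FPKM or more and were compared (FPKM is the number of sequenced fragments per length of transcript, scaled to the size of the library, and the unit was inferred from the values), and all 6 genes were among them. The other 7 mitochondrial genes encode complex I subunits and serve as the nearest comparison.

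The data are RNA-Seq libraries of HT-22, a permanently growing line derived from hippocampal neurons of the mouse, with 1 library for each of 4 groups. The Ctrl and Ctrl+OGD cells are labelled wild type, and the study's methods state that control cells received a negative control lentivirus. The PGC-1α and PGC-1α+OGD cells overexpressed PGC-1α from a lentivirus, and transduced cells were selected with puromycin. PGC-1α is a transcriptional co-activator that drives nuclear genes of mitochondrial biogenesis. The Ctrl+OGD and PGC-1α+OGD cells were deprived of oxygen and glucose (OGD) for 2 h, in medium lacking serum and glucose under 95% N2 and 5% CO2, and then kept 24 h in normal medium before RNA was taken. With 1 library per group there was no replicate, so none of the differences below has an error or a test, and each compares 2 libraries.

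Mitochondrial mRNAs are transcribed by a dedicated polymerase from promoters that serve a whole strand, so most of them are cut out of a long shared precursor in which tRNAs mark many of the cutting sites. The cytochrome c oxidase core receives electrons from cytochrome c and passes them to oxygen. Cytochrome b sits in the complex that feeds cytochrome c, and the ATP synthase uses the resulting proton gradient to make ATP. Each of these complexes also contains subunits made from nuclear genes and imported, so both genomes contribute to 1 enzyme.

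The 6 genes lie on the + strand of the mitochondrial chromosome (GRCm38, GENCODE annotation), each as 1 exon that starts with ATG. mt-Co1 occupies chrM:5328-6872, mt-Co2 chrM:7013-7696, mt-Atp8 chrM:7766-7969, mt-Atp6 chrM:7927-8607, mt-Co3 chrM:8607-9390 and mt-Cytb chrM:14145-15288. The last 30 bases of each gene are shown because the ends separate the genes into different kinds, with the bases that follow the last sense codon in capitals.
mt-Co1: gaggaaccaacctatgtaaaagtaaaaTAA
mt-Co2: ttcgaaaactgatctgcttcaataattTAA
mt-Co3: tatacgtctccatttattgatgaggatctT
mt-Cytb: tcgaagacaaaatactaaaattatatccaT
mt-Atp6: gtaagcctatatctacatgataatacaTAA
mt-Atp8: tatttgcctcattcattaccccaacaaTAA
mt-Co3 (261 codons) and mt-Cytb (381 codons) end in a lone T, a known feature of mitochondrial genes in which the poly(A) tail completes the stop codon. The remaining 4 genes end in a complete TAA.

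The 2 ATP synthase genes share bases, which is shown because each was given a level of its own. In the stretch chrM:7912-7984 the 43 bases that belong to both mt-Atp8 and mt-Atp6 (chrM:7927-7969) are in capitals.
mt-Atp8 and mt-Atp6: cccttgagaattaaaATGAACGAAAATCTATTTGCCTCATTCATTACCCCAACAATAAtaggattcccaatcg
The run of capitals opens with the start codon of mt-Atp6 and closes with the stop codon of mt-Atp8, and it makes up 21.1% of mt-Atp8 but 6.31% of mt-Atp6. In chrM:8593-8621 the single capital is the base that is both the last of mt-Atp6 and the first of mt-Co3.
mt-Atp6 and mt-Co3: catgataatacataAtgacccaccaaact
Reads from these shared bases cannot be given to 1 gene by sequence, and at 204 bases mt-Atp8 is the shortest of the 6, so its level per length is the least certain.

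Near-identical copies of mt-Co1, mt-Co2, mt-Co3 and mt-Atp6, whole or in part, are annotated in the nuclear genome as unprocessed pseudogenes. On chromosome 1, Gm28661 matched mt-Co2 at 100% over 681 bases, Gm28437 matched mt-Co3 at 100% over 783 bases, Gm10925 matched mt-Atp6 at 100% over 678 bases, and Gm29216 matched mt-Co1 at 99.8% over 483 bases. On chromosome 2, Gm13340 matched mt-Co1 at 97.6% over 1545 bases and Gm13341 matched mt-Co2 at 95.9% over 684 bases. Gm10925 also covers the 43 bases that mt-Atp6 shares with mt-Atp8, which was the only match of mt-Atp8. mt-Cytb had no annotated copy of at least 95% identity. None of these copies had a row in the table. How reads shared between a gene and its copy were assigned is not given in the sources used here. The levels of the genes that match a copy, mt-Atp8 only in its shared bases, are uncertain to that extent.

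Total FPKM ranged from 331892 to 353381 between libraries, and sequencing depth is unknown because the table holds no read counts. Ppargc1a, which encodes PGC-1α, was 0.9001 FPKM in Ctrl and 26.0 in PGC-1α cells, and 0.103 and 8.41 after OGD, so the labels of overexpression held in both pairs. For the labelled cell type, 2 of 12 neuron markers (Dlg4 and Eno2, summed 1.86 to 4.28 FPKM) and 3 of 9 glia markers (Slc1a3, Cx3cr1 and Mbp, summed 4.42 to 5.56) had rows, and the defining neuron markers Rbfox3, Map2, Tubb3 and Snap25 had none. All 6 proliferation markers (Mki67, Top2a, Pcna, Ccnb1, Cdk1 and Mcm2) had rows. Their summed level was 456 FPKM in Ctrl and 542 in PGC-1α cells, and 570 and 599 in the same pair after OGD. Without OGD all 6 markers were higher with PGC-1α. Their median log2 difference was 0.36 for the highest transcript of each and 0.38 with transcripts summed. After OGD 3 of 6 were higher by either measure, with medians of −0.037 and −0.0048. Mki67 (132 and 173 FPKM, transcripts summed) had the largest difference after OGD. The part of these markers in the results below was not tested.

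The 6 mRNAs were among the most abundant of all. Together they reached 8676 FPKM in Ctrl cells, 10434 with PGC-1α, 9046 with OGD and 10551 with PGC-1α and OGD, which was 2.61%, 3.09%, 2.56% and 3.04% of the total. The share was thus higher in both libraries with PGC-1α than in both without it. In bulk RNA, more mitochondrial mRNA per cell and a different mixture of cells cannot be told apart.

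Among the oxidase subunits, mt-Co1, which encodes the catalytic subunit that binds oxygen, had the highest level of any gene compared in all 4 libraries. Its level was 2398 FPKM in Ctrl against 2673 in PGC-1α cells, and after OGD 2627 against 2962. The lowest value belonged to Ctrl and the highest to PGC-1α+OGD, with the remaining libraries within 46.2 FPKM of each other.

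mt-Co2 encodes the subunit that takes electrons from cytochrome c. It reached 1002 FPKM in Ctrl and 1301 in PGC-1α cells, and 1060 and 1210 in the same pair after OGD. Both libraries with PGC-1α stood above both without it, and mt-Co2 was highest in PGC-1α cells without OGD. mt-Co3, which encodes the third core subunit, was the least abundant of the 6 at 639, 789, 721 and 805 FPKM in the same order. The ratio of mt-Co2 to mt-Co1 was 0.418, 0.487, 0.403 and 0.409, and that of mt-Co3 to mt-Co1 was 0.267, 0.295, 0.274 and 0.272. The deposited levels of the oxidase mRNAs were therefore unequal, although 1 of each protein enters the complex. Both ratios were highest in PGC-1α cells without OGD. How reads shared with the nuclear copies were assigned is not given, so these ratios need not follow the mRNA amounts.

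mt-Cytb was next to mt-Co1 in abundance among the 6 in every library. Its level was 1972 FPKM in Ctrl cells, 2315 with PGC-1α, 2011 with OGD and 2413 with PGC-1α and OGD. The libraries without PGC-1α lay within 38.3 FPKM of each other and below both libraries with it.

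mt-Atp6 encodes the subunit that forms the proton path of the ATP synthase together with the c-ring. It stood at 1271 FPKM in Ctrl against 1451 in PGC-1α cells, and after OGD 1317 against 1510. mt-Atp8, which encodes a small membrane-anchored subunit, stood at 1393, 1905, 1311 and 1651 FPKM in the same order. Both were higher in the libraries with PGC-1α. After OGD mt-Atp8 was lower in both backgrounds, and mt-Atp6 was slightly higher as deposited, though in Ctrl cells its difference turned to −0.037 (log2) when totals outside the mitochondrial genome were made equal. The ratio of mt-Atp8 to mt-Atp6 was 1.10 in Ctrl and 1.31 in PGC-1α cells, and 0.996 and 1.09 in the same pair after OGD. These neighbours, which are known to be carried on 1 mRNA, thus changed places in the order of levels in Ctrl+OGD cells, where they differed by 5.56 FPKM.

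**Figure D1:**
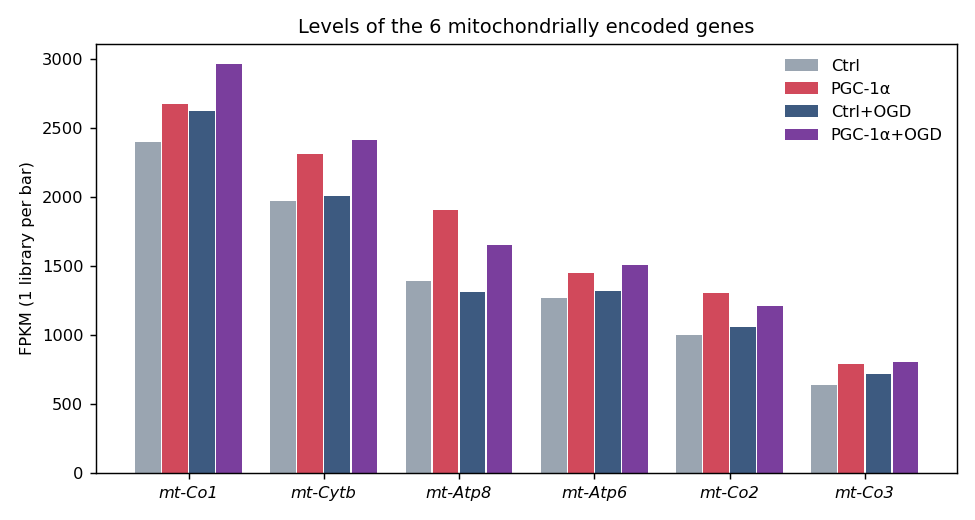
Level in FPKM (linear axis from 0) of the 6 mitochondrially encoded genes outside complex I in each of the 4 libraries, 1 bar per library and no error bar because each group has 1 library. mt-Co1 is highest at 2398 to 2962 FPKM and mt-Co3 lowest at 639 to 805 FPKM, and for every gene both PGC-1α bars stand above the bar of the matching control.

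The order of levels was mt-Co1, mt-Cytb, mt-Atp8, mt-Atp6, mt-Co2 and mt-Co3 in every library except Ctrl+OGD, where mt-Atp6 stood just above mt-Atp8, and the highest mRNA exceeded the lowest 3.75-fold in Ctrl cells, 3.39-fold with PGC-1α, 3.65-fold with OGD and 3.68-fold with PGC-1α and OGD. Without replicates, neighbours in this order cannot be separated by their spread.

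The first comparison set the PGC-1α library beside the Ctrl library, both without OGD. All 6 mRNAs had a higher level in PGC-1α than in Ctrl cells, by 11.4% for mt-Co1, 14.2% for mt-Atp6, 17.4% for mt-Cytb, 23.4% for mt-Co3, 29.8% for mt-Co2 and 36.8% for mt-Atp8. On the log2(FPKM + 1) scale these are differences of 0.16 to 0.45 with a median of 0.27, against a median of −0.027 over all 10437 genes. None of the 6 reached the fold change of 1.5 that served as the call, a fold that 7.8% of all genes exceeded upwards and 9.3% downwards. Many of those calls came from weakly expressed genes. A closer background is the 220 genes with 1 deposited transcript and a mean of at least 100 FPKM. They include all 13 mitochondrial mRNAs. Among them 5.91% were past the fold upwards and 1.36% downwards. Their median was 0.068, and the middle 95% lay between −0.49 and 0.68. Ranked from the highest difference in this set, mt-Atp8 was at place 30, mt-Co2 at 43, mt-Co3 at 59, mt-Cytb at 76, mt-Atp6 at 81 and mt-Co1 at 90.

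After OGD the same comparison, PGC-1α+OGD vs Ctrl+OGD, used a different pair of libraries. Again all 6 levels were higher with PGC-1α, by 11.7% for mt-Co3, 12.8% for mt-Co1, 14.2% for mt-Co2, 14.7% for mt-Atp6, 19.98% for mt-Cytb and 25.9% for mt-Atp8. The log2 differences ran from 0.16 to 0.33 with a median of 0.19, and all genes had a median of −0.019. None of the 6 passed the fold, against 5.84% of all genes upwards and 7.23% downwards. Among the 220 abundant genes none (0%) passed it upwards and 0.909% downwards, and the median was −0.059. There the 6 stood higher in the ranking than without OGD, with mt-Atp8 at place 3, mt-Cytb at 10, mt-Atp6 at 18, mt-Co2 at 20, mt-Co1 at 24 and mt-Co3 at 28.

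Side by side, both comparisons share no library. A gene was above 0 in both for 6 of the 6 mRNAs and 7 of the 7 complex I mRNAs. The share was 27.3% of the 220 abundant genes and 23.3% of all genes, and these backgrounds include the mitochondrial mRNAs themselves. mt-Atp8 had the greatest difference of the 6 in both comparisons, while mt-Co2 was next without OGD and mt-Cytb with it. The difference with OGD minus that without was 0.017 for mt-Co1, 0.0063 for mt-Atp6 and 0.032 for mt-Cytb, and it was −0.18 for mt-Co2, −0.14 for mt-Co3 and −0.12 for mt-Atp8. For 3 genes the difference with PGC-1α was thus about the same in both pairs, and for 3 it was smaller after OGD. Over all genes this change was below 0 for 5229 of 10437, and the middle 95% lay between −1.82 and 1.76. The count among the 6 is near that share, and all 6 values lie inside that range. The range includes weakly expressed genes, so it says little about genes as abundant as the 6. In PGC-1α+OGD vs Ctrl+OGD alone, the middle 95% was −1.33 to 1.12 for all genes but −0.28 to 0.32 for the 220 abundant genes. The range of the change was not computed for those 220.

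All 6 stayed higher with PGC-1α in both comparisons after median ratio scaling, after upper quartile scaling and with equal totals outside the mitochondrial genome. They did not when the totals of the 13 mitochondrial mRNAs were made equal, a scaling chosen after the data were seen. The 6 hold 57.2% to 61.8% of that total, so this scaling removes a shared rise by construction and cannot test it. Under this scaling 2 of the 6 remained above 0 in each comparison. The medians were −0.091 and −0.063, with all genes at −0.35 and −0.25.

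The second question was how the library with OGD differed from that without it in each background, and the differences were small. In Ctrl+OGD against Ctrl cells the level was higher by 9.52% for mt-Co1, 12.7% for mt-Co3, 5.73% for mt-Co2, 3.62% for mt-Atp6 and 1.94% for mt-Cytb, and the difference was −5.84% for mt-Atp8. The median log2 difference was 0.066, with −0.0060 for all genes, and none of the 6 passed the fold, which 9.59% of all genes passed upwards and 10.4% downwards. The direction depended on the scaling: 5 of 6 were above 0 as deposited, 3 after upper quartile scaling and 2 when totals outside the mitochondrial genome were made equal. The scaling also decided mt-Cytb and mt-Atp6, and with equal totals outside the mitochondrial genome mt-Co2 as well. Since the 220 abundant genes had a median of 0.19 in this comparison, with 10.5% past the fold upwards and 0.909% downwards, all 6 stood in the lower part of that set, at places 116 to 190.

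In PGC-1α+OGD against PGC-1α cells, mt-Co1 was higher by 10.8%, mt-Cytb by 4.22%, mt-Atp6 by 4.08% and mt-Co3 by 1.96%, while the difference was −6.99% for mt-Co2 and −13.3% for mt-Atp8. The median log2 difference was 0.043, beside 0.0055 for all genes. None passed the fold, against 7.46% of all genes upwards and 8.73% downwards and 0.455% and 1.36% of the 220 abundant genes. Here 4 of 6 were above 0 as deposited and 3 at the least favourable scaling, with mt-Co3 the gene that turned. mt-Atp8 was lower after OGD in both backgrounds under these 3 scalings, and mt-Co1 was higher in both. The 4 comparisons reuse the same 4 libraries, so each library enters 2 of them.

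**Figure D2:**
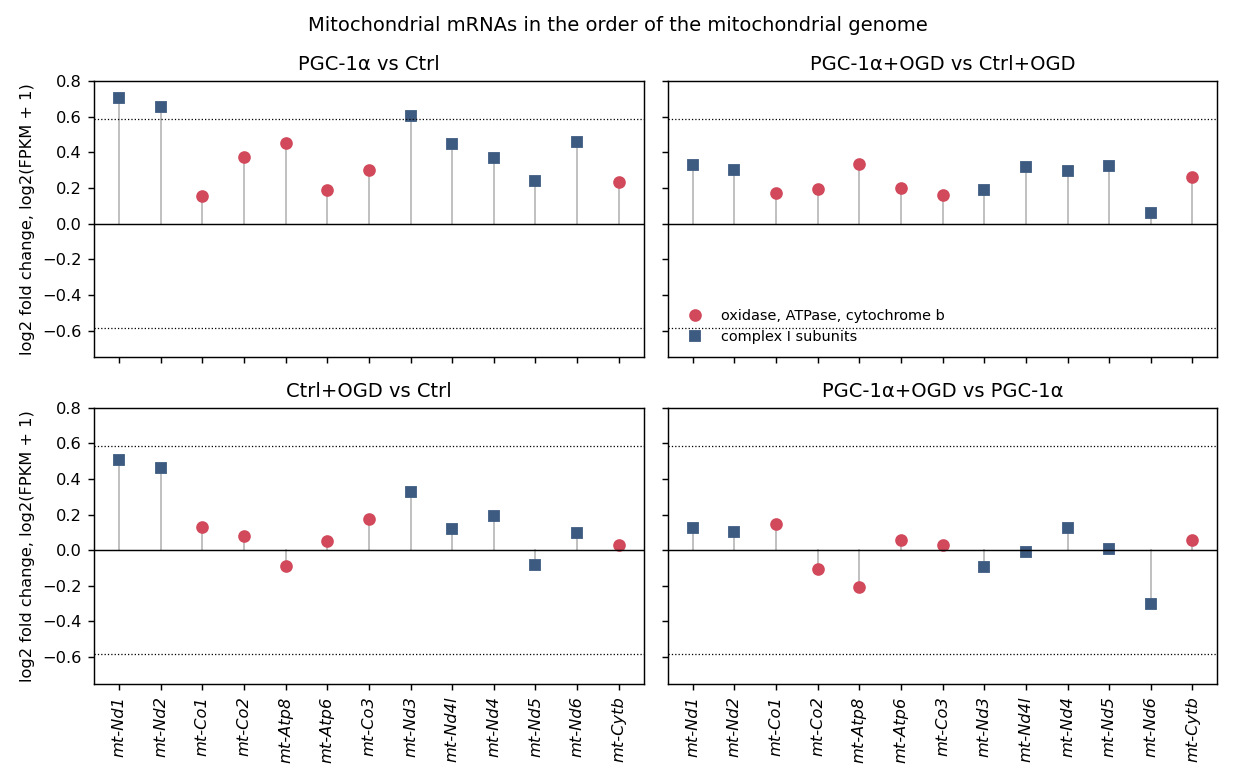
Log2 fold change of the 13 mitochondrial mRNAs on the log2(FPKM + 1) scale, in genome order, with 1 panel per comparison and dotted lines at a fold change of 1.5. The 6 genes outside complex I stay between the dotted lines in all panels. All of them lie above 0 in both comparisons of PGC-1α with control. That holds under every scaling except equal mitochondrial totals, which removes a shared mitochondrial rise by construction.

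The complex I mRNAs, mostly cut from the same precursor, had larger differences with PGC-1α in their median. In PGC-1α vs Ctrl their median log2 difference was 0.46 and 3 of 7 rose past the fold. There 7.8% of all genes and 5.91% of the 220 abundant genes rose past it. The 3 were mt-Nd1 (0.71), mt-Nd2 (0.65) and mt-Nd3 (0.60), named here after their values were seen. After OGD the median of the 7 was 0.30 with 0 of 7 past the fold. In Ctrl+OGD vs Ctrl it was 0.19, and in PGC-1α+OGD vs PGC-1α it was 0.0042, each with 0 of 7 past the fold. The background shares for these counts are those given above. mt-Nd1, mt-Nd2 and mt-Nd3 had the highest values of the 7 in Ctrl+OGD vs Ctrl, at 0.50, 0.46 and 0.32. The change of the PGC-1α difference with OGD had a median of −0.35 over the 7 complex I mRNAs, −0.056 over the 6 and −0.00073 over all genes.

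Within the mitochondrial mRNA, the 6 genes accordingly held 61.8% of the summed FPKM in Ctrl against 58.0% in PGC-1α cells, and after OGD 58.6% against 57.2%. The Ctrl library stood apart from the remaining libraries, which spanned 57.2% to 58.6%. That library enters both comparisons made against Ctrl.

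**Figure D3:**
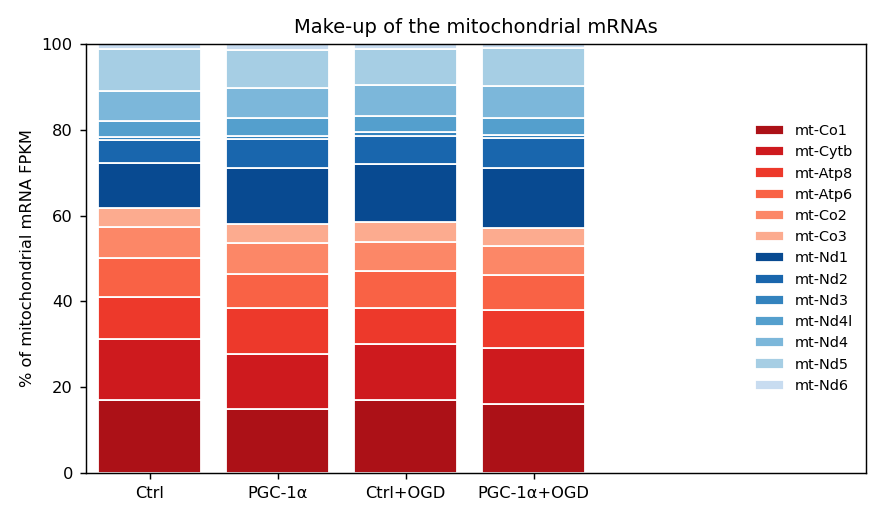
Percent of the summed FPKM of the 13 mitochondrial mRNAs that each gene takes, stacked to 100% for each of the 4 libraries. The 6 genes outside complex I hold 61.8% in Ctrl and 57.2% to 58.6% in the other libraries.

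The nuclear partners of these subunits were far less abundant. In complex IV the median mitochondrial subunit exceeded the median of 14 nuclear subunits 7.88-fold in Ctrl and 7.72-fold in PGC-1α cells, and 6.58-fold and 7.36-fold in the same pair after OGD. For complex III the ratio of mt-Cytb to the median of 9 nuclear subunits was 21.9, 19.0, 20.6 and 20.9, and for the ATP synthase with 17 nuclear subunits it was 10.3, 8.74, 7.60 and 7.69. All 3 ratios were highest in Ctrl cells. The most abundant nuclear subunits were Cox8a (288 to 390 FPKM), Uqcrb (266 to 402 FPKM) and Atp5b (440 to 696 FPKM), transcripts summed, and in each library they stayed below the least abundant mitochondrial subunit of their complex.

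Nuclear subunits had larger median differences with PGC-1α than the 6 mRNAs without OGD, but not in every list after it. Without OGD, 2 of 14 complex IV subunits rose and 1 fell past the fold (median 0.46), 3 of 10 genes of complex III and cytochrome c rose (median 0.53) and 6 of 18 ATP synthase genes rose (median 0.51), with 0 that fell in both of these lists. After OGD the medians were 0.096, 0.25 and 0.18, with 1, 0 and 0 genes that rose and 0 that fell. The background shares for these counts are those given above for all genes.

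Cox7a1, a muscle-type oxidase subunit, rose in both comparisons, from 2.59 to 23.1 FPKM without OGD and from 2.46 to 11.5 with it. Cox5a went from 23.8 to 60.2 FPKM without OGD, and after OGD was 80.01 without and 66.0 with PGC-1α. It rose past the fold in PGC-1α vs Ctrl and was within it after OGD (−0.27). Cox6a2, also a muscle-type subunit, fell from 91.9 to 45.7 FPKM and did not pass the fold after OGD, at 71.8 and 64.1 FPKM.

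Cycs, the cytochrome c that carries electrons from complex III to the oxidase, rose from 56.7 to 107 FPKM, and Cyc1, the cytochrome c1 subunit, from 43.1 to 72.0 FPKM. Atp5g1, a source of the c-ring subunit, rose from 66.6 to 148 FPKM and Atp5o, a stalk subunit, from 70.8 to 134 FPKM. After OGD the log2 differences were 0.34 for Cycs, 0.28 for Cyc1, 0.55 for Atp5g1 and 0.14 for Atp5o, all within the fold. These nuclear genes were also higher in Ctrl+OGD than in Ctrl cells, at 103 FPKM for Cycs, 119 for Atp5g1 and 126 for Atp5o, all past the fold, and at 58.6 for Cyc1, which was within it. The Ctrl library thus held the lowest value of each.

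In Ctrl+OGD vs Ctrl the nuclear lists had medians of 0.22 for complex IV, 0.32 for complex III with cytochrome c and 0.29 for the ATP synthase, where 1, 1 and 3 genes rose and 0 fell. Over all genes, 9.59% rose and 10.4% fell. Among the 220 abundant genes 10.5% rose and 0.909% fell, with a median of 0.19. In PGC-1α cells the medians of the nuclear lists were 0.029, 0.035 and 0.058, with 0 genes that rose and 1 that fell, Cox7a1. There 7.46% of all genes rose and 8.73% fell.

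**Figure D4:**
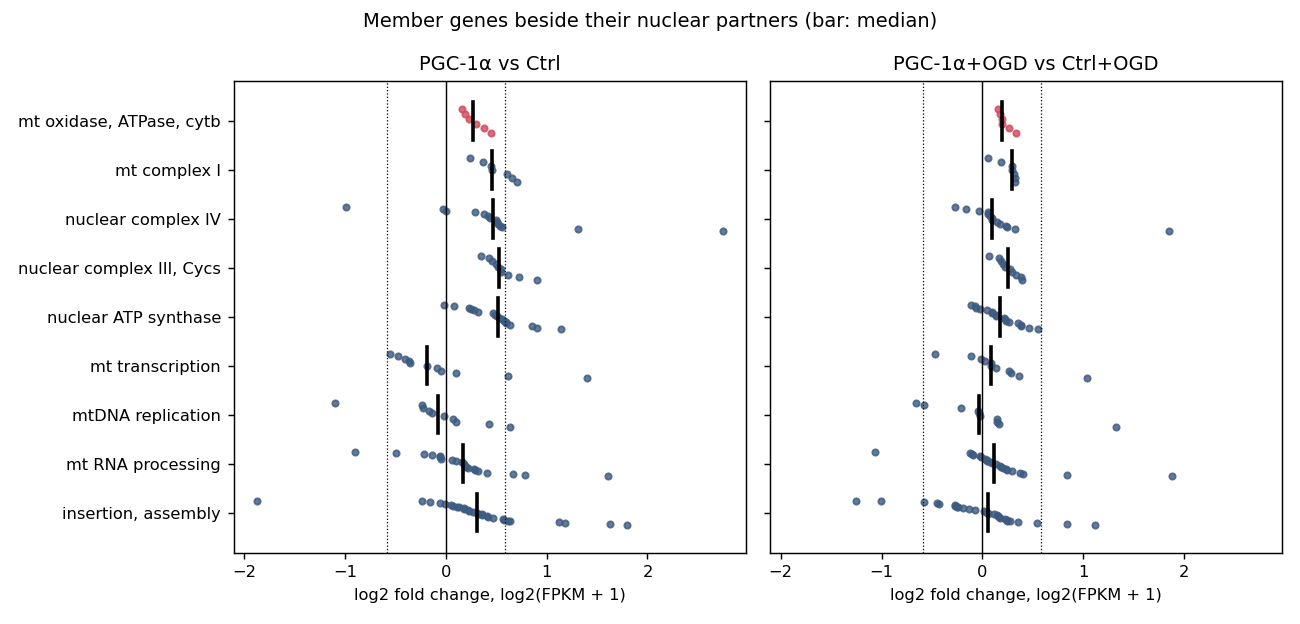
Log2 fold change on the log2(FPKM + 1) scale of each gene (point) in 9 lists, with the list median as a bar and dotted lines at a fold change of 1.5, for PGC-1α vs Ctrl and PGC-1α+OGD vs Ctrl+OGD. The 6 genes lie close together at medians of 0.27 and 0.19, while the nuclear subunit lists have medians of 0.46 to 0.53 in the first panel and 0.096 to 0.25 in the second.

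The nuclear genes that make and maintain mitochondrial RNA had medians on both sides of 0. Of 11 genes for mitochondrial transcription, 2 rose past the fold in PGC-1α vs Ctrl and 0 fell, with a median of −0.19. After OGD 1 rose and 0 fell, with a median of 0.089. Over all genes, 7.8% rose and 9.3% fell without OGD, and 5.84% rose and 7.23% fell after it. Polrmt, the mitochondrial RNA polymerase, was low at 2.61 FPKM in Ctrl cells, 1.60 with PGC-1α, 1.11 with OGD and 3.33 with PGC-1α and OGD, so that it was lower with PGC-1α without OGD (−0.47, within the fold) and rose with it after OGD (1.04). Tfam, which packages mitochondrial DNA and starts its transcription, was 13.5, 14.6, 11.4 and 14.9 FPKM in the same order, with log2 differences of 0.097 and 0.37. With its 3 deposited transcripts summed, the differences of Tfam were −0.0054 and 0.19.

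The genes of this list that rose without OGD were Mterf3 and Mrpl12. Mterf3, a member of the mitochondrial termination factor family, went from 5.35 to 15.8 FPKM, and Mrpl12, a ribosomal protein that also binds the polymerase, from 54.4 to 84.0 FPKM. After OGD their differences were −0.017 and 0.14.

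Of 10 measured genes for mitochondrial DNA replication, 1 rose and 1 fell in each PGC-1α comparison. The medians were −0.079 and −0.031 for the highest transcript, and −0.18 and 0.079 with transcripts summed, so the direction after OGD depended on that choice. Rnaseh1, which removes RNA from RNA-DNA hybrids, rose in both (0.64 and 1.33), and Primpol, a primase-polymerase, fell in both (−1.10 and −0.66). Primpol was low, at 3.58 FPKM in Ctrl cells, 1.14 with PGC-1α, 1.85 with OGD and 0.804 with PGC-1α and OGD. Of 22 genes for mitochondrial RNA processing and stability, 3 rose and 1 fell without OGD (median 0.17), and 2 rose and 1 fell after it (median 0.12). These counts and those for replication stand beside 7.8% of all genes up and 9.3% down without OGD, and 5.84% and 7.23% after it. With transcripts summed, 3 of the 22 rose and 0 fell without OGD, beside 4.91% and 5.63% of all genes. After OGD 1 of the 22 rose and 0 fell, beside 3.08% and 3.82% of all genes. Lrpprc, which stabilises mitochondrial mRNAs and their poly(A) tails, was 28.0 FPKM in Ctrl against 31.6 in PGC-1α cells, and after OGD 31.8 against 35.1. Its log2 differences with PGC-1α, 0.17 and 0.14, were within the range of the 6 mRNAs without OGD and just below it after OGD, and it did not pass the fold.

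Of 29 measured genes that insert or assemble these subunits, 6 rose and 1 fell without OGD (median 0.31). There 7.8% of all genes rose and 9.3% fell. After OGD 2 of the 29 rose and 2 fell (median 0.053), beside 5.84% and 7.23% of all genes. With transcripts summed the counts were 4 and 1 without OGD, where 4.91% of all genes rose and 5.63% fell, and 0 and 2 after it, where 3.08% rose and 3.82% fell. The largest rise and fall without OGD, in Ttc19 and Pet100, belonged to genes with several deposited transcripts, and summing the transcripts reduced both. Ttc19, a complex III assembly factor, had log2 differences of 1.79 without OGD and −1.003 after it for its highest transcript, and 0.50 and 0.068 when its transcripts were summed. Pet100, an oxidase assembly factor, had a log2 difference of −1.88 without OGD for its highest transcript and −1.27 when summed.

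With OGD the transcription list had 1 gene that rose and 1 that fell in Ctrl cells (median −0.15) and 2 that rose in PGC-1α cells (median 0.11). The corresponding medians were −0.032 and 0.13 for replication, 0.22 and 0.19 for RNA processing, and 0.19 and −0.031 for insertion and assembly. Genes past the fold upwards and downwards numbered 0 and 2 in Ctrl and 0 and 1 in PGC-1α cells for replication, 4 and 2 in Ctrl and 2 and 1 in PGC-1α cells for RNA processing, and 6 and 0 in Ctrl and 1 and 6 in PGC-1α cells for insertion and assembly, beside the 9.59% and 10.4% of all genes in Ctrl and 7.46% and 8.73% in PGC-1α cells. Several of these counts were smaller with transcripts summed. Insertion and assembly then had 3 and 0 in Ctrl and 1 and 2 in PGC-1α cells, RNA processing 2 and 1 in Ctrl and 2 and 0 in PGC-1α cells, replication 0 and 1 in both, and transcription 1 and 1 in Ctrl and 0 and 0 in PGC-1α cells. The shares of all genes were then 6.2% and 7.71% in Ctrl and 3.82% and 5.22% in PGC-1α cells. The replication median in Ctrl cells went to −0.22.

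Genes whose pattern over the 4 libraries lay nearest to the mean of the 6 were found by the Euclidean distance between log2(FPKM + 1) values centred on each gene's own mean. The 10 nearest were Esf1, Dnajb2, Epb41l1, Hnrnpu, Upf3b, Oma1, Trim39, Ankrd40, Gm9833 and Stard9, at distances of 0.0243 to 0.0558. All 6 mitochondrial genes have a distance of their own, from 0.0509 for mt-Cytb to 0.227 for mt-Atp8. Since 917 of 10431 other genes lay nearer than mt-Atp8, many genes share this pattern over 4 libraries. The nearest complex I gene was mt-Nd5 at 0.107, at place 99 among the genes outside the 6, and the farthest was mt-Nd1 at 0.419.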

How the data were processed

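RNA was enriched for poly(A) mRNA, made into stranded libraries and sequenced as paired-end reads, per the study's methods. The submitters' processing notes name HISAT2 2.1.0 and the GRCm38 genome, and the program and annotation used for quantification are not given in the sources used here. The authors deposited 1 table of 25889 transcripts with a value in each of the 4 libraries. The unit is not named in the file. The deposited values were taken as FPKM, since they are not whole, their totals differ between libraries, and every transcript reaches 0.500 in at least 1 library. Whole reads could not be recovered from low values (25.8% to 35.3% of steps within 0.1 of a whole number, above the 20% of evenly spread values but far from nearly all), so depth and counting error are unknown.

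Transcript IDs were matched to GENCODE M21, which gave a symbol to 25822 of them (99.7%). The table holds the 13 mitochondrial mRNAs and no mitochondrial rRNA or tRNA, and the 13 have 1 transcript each. Other genes took the transcript with the highest mean over the libraries, and those averaging 1 FPKM or more were compared. Differences are on the log2(FPKM + 1) scale, which understates changes of low genes, and a fold of at least 1.5 on it was the call. No p-value is given because each group has 1 library. Alternatives were pseudocounts of 0.1 and 0.01, other minimum levels (none, 5 and 100 FPKM), median ratio and upper quartile scaling, equal totals outside the mitochondrial genome, totals without the 10 most abundant transcripts, summed transcripts and a 2-fold call. Equal totals of the mitochondrial mRNAs, and genes with 1 transcript and a mean of at least 100 FPKM, were added after the data were seen. The 6 genes and all lists were chosen with earlier results of these data known.

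Named genes were the 6, Ppargc1a, Tfam, Polrmt and Lrpprc, a selection of the 2 strongest rises and falls of each list in each comparison, and the 10 nearest patterns. Gene sequences were read from the GENCODE M21 transcripts and matched to each other and to annotated copies with blastn. Values were computed with pandas 2.3.3 and numpy 2.4.6 under Python 3.11.15, and plots were drawn in matplotlib 3.10.9.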

Additional observations from a re-analysis of the deposited data

Results flagged for a closer look

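mt-Co2 differed in direction after OGD between the backgrounds. Its log2 difference was 0.080 in Ctrl cells (Ctrl+OGD vs Ctrl) and −0.10 in PGC-1α cells (PGC-1α+OGD vs PGC-1α), with 1 library behind each level, and the difference between them was not tested. Both values are small beside the fold used, and the value in Ctrl cells became −0.0080 when totals outside the mitochondrial genome were made equal.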

How the results depend on the processing

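No paired analysis was possible because each group has 1 library, and for the same reason no library could be left out. Under the settings listed with the methods, other than those added after the data were seen, the medians of the 6 mRNAs stayed within 0.1 (log2) of the reported values and 0 of 6 passed the fold. Only the scalings could have moved these medians by much, because each of the 6 has 1 transcript and a high level. A 2-fold call could only lower a count already at 0. Their shares of the total were 2.72%, 3.20%, 2.66% and 3.15% (Ctrl, PGC-1α, and the same pair with OGD) without the 10 most abundant nuclear transcripts. For PGC-1α against control the medians ranged from 0.24 to 0.30 without OGD and from 0.19 to 0.24 after it, and for OGD against none from −0.023 to 0.069 in Ctrl and from 0.0039 to 0.043 in PGC-1α cells. Making the totals of the mitochondrial mRNAs equal, an alternative added after the data were seen, gave member medians of −0.091, −0.063 and −0.072 in the first 3 of these comparisons. It removes by construction a rise shared by the mitochondrial mRNAs, so it cannot test one. It also moves all genes alike and shifted the median of all genes to −0.35, −0.25 and −0.13. The share of higher among all calls went from 45.6% to 15.5%, from 44.6% to 25.4% and from 48.0% to 33.1%.

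Counts of genes past the fold, higher and lower, in the same order of comparisons, were 814 and 971, 609 and 755, 1001 and 1086, and 779 and 911. With a mean of at least 5 FPKM the lower counts were 537, 441, 598 and 518, and the higher counts that moved by over 1.5 times were 344 and 463 in the comparisons named second and last. With at least 100 FPKM they were 31 and 15, 8 and 10, 50 and 12, and 15 and 8. With summed transcripts they were 521 and 597, 327 and 405, 657 and 818, and 405 and 553. With a 2-fold call they were 369 and 417, 308 and 384, 407 and 427, and 378 and 442. With 1 transcript and at least 100 FPKM they were 13 and 3, 0 and 2, 23 and 2, and 1 and 3. Equal mitochondrial totals gave 442 and 2406, 419 and 1233, 763 and 1539, and 715 and 951. Equal totals outside the mitochondrial genome lowered the share of higher calls in Ctrl+OGD vs Ctrl to 38.3%. Summing transcripts turned the median of the replication list in PGC-1α+OGD vs Ctrl+OGD from −0.031 to 0.079 and moved it in Ctrl+OGD vs Ctrl from −0.032 to −0.22. Of the 10 nearest patterns, 7 were kept with a pseudocount of 0.1.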

Other observations

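Over the 13 mitochondrial mRNAs, the log2 difference in PGC-1α+OGD vs PGC-1α went with transcript length, with Pearson r = 0.68 against log2 length and Spearman rho = 0.71 against length. The values were −0.37 and −0.44 in PGC-1α vs Ctrl, which contains the same PGC-1α library with the opposite sign, 0.049 and 0 in PGC-1α+OGD vs Ctrl+OGD and 0.12 and 0.12 in Ctrl+OGD vs Ctrl. The points are genes that share their libraries and precursor RNAs, so these values describe the libraries and carry no p. mt-Atp8, at 204 bases the shortest of the 6 described above, was also the one of those 6 with the lowest difference after OGD in both backgrounds. Of the 13, mt-Nd6 had a lower difference in PGC-1α cells, −0.30 against −0.21 for mt-Atp8.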
